A study of Homo sapiens with 2 samples.

Results

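Accessible chromatin was examined at 6 genes of secreted B-cell signals, the chemokine genes CCL22, CCL17, CCL5 and CXCL10 and the interleukin genes IL10 and IL6. The members are the regions of the deposited list whose midpoint lay within 50 kb of the span of one of these genes in hg19, which gave 13 distinct regions of 23612 in the list. The cells were GM12878, a human B lymphoblastoid line immortalised by Epstein-Barr virus, grown in suspension and left untreated. ATAC-seq marks open chromatin by letting a transposase insert sequencing adapters where DNA is exposed, and it was run on 2 cultures of 50000 cells each, and both form 1 group. A single list was deposited for both cultures, with a position and a score for each region, so there are no values per culture, the depth is unknown and no replicate error or test could be given. A single transformed line stands for itself and not for B cells at large, and expression of the 6 genes was not measured, so their label as B-cell genes was not checked.

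Chemokines are small secreted proteins that draw cells along a gradient by binding receptors on them, and interleukins are secreted proteins that act on the growth and state of nearby cells. CCL22 and CCL17 bind the receptor CCR4 and attract helper and regulatory T cells, and both are known to be made by B cells transformed with Epstein-Barr virus, where the viral protein LMP1 induces them through NF-kB. CCL5 attracts T cells and monocytes, and CXCL10 is an interferon-induced ligand of CXCR3. IL10 restrains inflammation and supports the growth of B cells, and IL6 drives the maturation of B cells into plasma cells.

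Promoter letters are shown for start sites that, as described below, had no region within 1 kb. RefSeq promoters of GRCh38.p14 were found by symbol for 4 of the 6 genes, CCL22 (chromosome 16, plus strand), CXCL10 (chromosome 4, minus strand), IL10 (chromosome 1, minus strand, the outermost of 3 listed starts) and IL6 (chromosome 7, plus strand). Each line gives the 250 bases before the RefSeq start, 5′ to 3′, and capitals mark every match to a searched motif on either strand.
CCL22: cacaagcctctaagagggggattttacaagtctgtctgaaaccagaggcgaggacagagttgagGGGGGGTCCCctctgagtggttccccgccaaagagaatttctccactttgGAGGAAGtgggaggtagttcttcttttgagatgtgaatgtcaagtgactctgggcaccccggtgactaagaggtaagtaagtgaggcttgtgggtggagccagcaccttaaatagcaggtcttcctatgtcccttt
CXCL10: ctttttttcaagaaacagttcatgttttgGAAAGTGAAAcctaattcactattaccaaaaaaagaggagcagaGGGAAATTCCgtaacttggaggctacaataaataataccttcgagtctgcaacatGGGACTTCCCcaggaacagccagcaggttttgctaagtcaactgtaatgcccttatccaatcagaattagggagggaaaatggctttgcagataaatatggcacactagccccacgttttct
IL10: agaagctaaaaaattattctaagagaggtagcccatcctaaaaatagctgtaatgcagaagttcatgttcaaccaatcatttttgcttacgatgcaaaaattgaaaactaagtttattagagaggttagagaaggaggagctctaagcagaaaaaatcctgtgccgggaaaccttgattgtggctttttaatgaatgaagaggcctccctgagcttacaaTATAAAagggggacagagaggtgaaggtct
IL6: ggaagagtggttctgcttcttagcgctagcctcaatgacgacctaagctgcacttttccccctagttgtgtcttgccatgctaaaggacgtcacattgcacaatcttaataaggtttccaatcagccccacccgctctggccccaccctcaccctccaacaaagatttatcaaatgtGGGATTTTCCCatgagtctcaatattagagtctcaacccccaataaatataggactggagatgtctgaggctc
For NF-kB the letters searched were GGGA and CC with 4 free bases between them, and for the interferon-stimulated response element (ISRE) they were GAAA, 2 free bases and GAAA again. A STAT match was TTC, 3 free bases and GAA, and an AP-1 match was TGA, 1 free base and TCA. PU.1 was searched as GAGGAAG, and a TATA box as TATAAA. The NF-kB letters were present in CCL22, CXCL10 and IL6, or 3 of the 4 promoters, against 22.6% of all 35116 promoters in the table. CXCL10 held these letters at 2 places, at bases -177 to -168 and -122 to -113 from its start, where the second reads as a match on both strands. In IL6 the matches on the 2 strands overlap, at -73 to -64 and -72 to -63. The ISRE letters were found only in CXCL10 among the 4, at -221 to -212, against 3.02% of all promoters. CCL22 held the PU.1 letters at -136 to -130, against 11.2% of all promoters, and IL10 held the TATA letters at -30 to -25, against 10.7%. AP-1 and STAT letters were in 0 of the 4 windows, against 6.57% of all promoters for each. All 4 promoters were poorer in CpG than the median promoter, with 3 CpG dinucleotides in CCL22, 3 in CXCL10, 2 in IL10 and 4 in IL6, against a median of 11 over all promoters. Their GC content was 51.2% in CCL22, 40.8% in CXCL10, 38.4% in IL10 and 47.6% in IL6, against a median of 58%. These matches describe letters and no binding, and the RefSeq starts are of another build than the list.

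The start of CCL5 was the only one of the 6 with an accessible region within 1 kb. Over chromosomes 1 to 22 and X, 2.16% of positions on a 1 kb grid lay this close to a region. The starts of IL10, CXCL10, CCL22 and CCL17 lay 2.46, 6.70, 9.15 and 26.9 kb from the nearest region edge, and that of IL6 lay 86.5 kb away. Regions fell inside or across the span of 2 genes, CCL5 and IL10, whereas 11 of the 13 regions lay outside all 6 spans. The genes differed in how much of their surroundings was listed, with 4 regions near CXCL10, 3 each near IL10, CCL22 and CCL17, 1 near CCL5 and 0 near IL6. CCL22 and CCL17 lie side by side and shared 1 of these regions. The order of the genes depended on the window. Within 25 kb of the spans there were 3 regions near CCL22, 2 near CXCL10, 1 each near IL10 and CCL5, and 0 near CCL17 and IL6. Within 100 kb there were 6 near CCL22, 5 each near CCL17 and IL10, 4 near CXCL10, and 2 each near CCL5 and IL6.

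**Figure D1:**
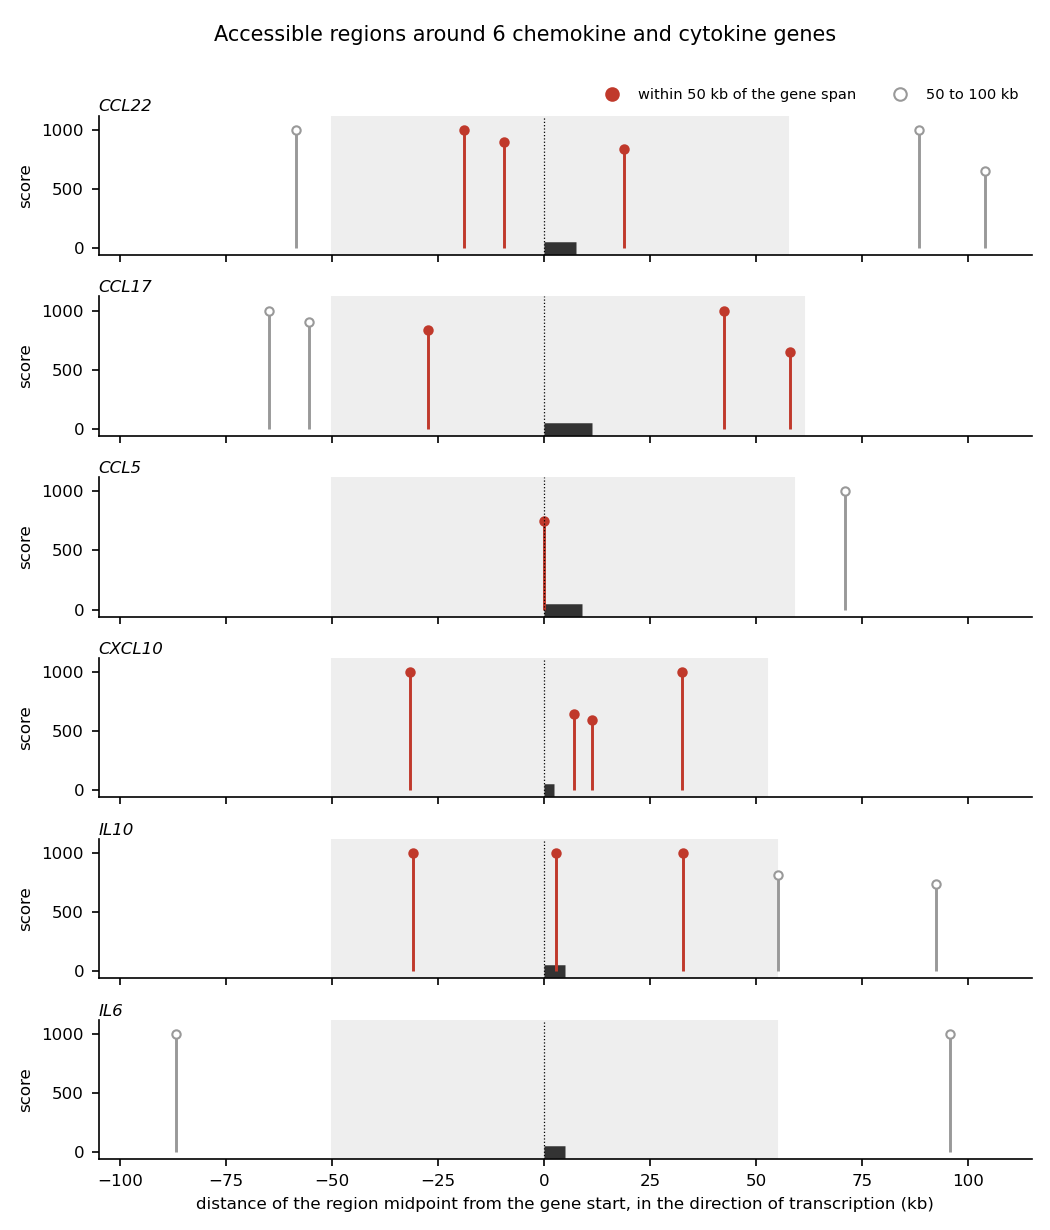
Regions around each of the 6 genes, drawn in the direction of transcription, with the distance of the region midpoint from the gene start on the x axis (kb) and the deposited score on the y axis. Filled red points are regions within 50 kb of the gene span, open grey points lie 50 to 100 kb away, black bars are the gene spans and the grey band is the 50 kb window; only the CCL5 start is under a region, and the IL6 window is empty.

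CCL22 (chr16:57392695-57400102, plus strand, band 16q13) had 3 regions in its window and none over the gene. The upstream region farther from the start, at chr16:57373408-57374325, was 918 bp wide and ended 18.4 kb before the start. Its score was 1000, the highest of the list and a cap that 60.1% of all regions reached. Closer in, chr16:57383077-57383548 was 472 bp wide with a score of 900, and ended 9.15 kb before the start. These 2 regions were 8.75 kb apart. The third lay 18.4 kb beyond the start, at chr16:57411056-57411794, with a width of 739 bp and a score of 835. The start of CCL22 thus sat in an interval of 27.5 kb without a region, and 92.8% of grid positions lay in an interval at least as long.

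CCL17 (chr16:57438679-57449974, plus strand, band 16q21) began 46.0 kb after CCL22 on the same strand. The region at chr16:57411056-57411794 was the only one between the 2 starts, and it is the one that both windows hold, 26.9 kb before the CCL17 start. The protein-coding gene between them in the RefSeq order is CX3CL1, which encodes a chemokine that can stay tethered to the membrane. The span of CX3CL1 was not used, so whether the shared region lies inside it was not analysed. That region thus need not belong to CCL22 or CCL17. The other regions of CCL17 lay on its far side. The nearer, chr16:57480381-57481805, was 1425 bp wide with a score of 1000 and began 41.7 kb beyond the start. It was the widest of the 13, and 88.3% of the whole list was narrower. The farther, chr16:57496373-57496750, was 378 bp wide with a score of 653 and began 57.7 kb beyond the start, and only 2.74% of the list was narrower. CIAPIN1, COQ9 and POLR2C, none of them a chemokine gene, follow CCL17 in the RefSeq order, so these regions need not belong to CCL17. The start of CCL17 lay in an interval of 68.6 kb without a region, and 85% of grid positions lay in one at least as long.

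CCL5 (chr17:34198496-34207377, minus strand, band 17q12) had 1 region in its window, and that region lay across its start. It spanned chr17:34207110-34207655, which runs from base -278 to base 267 relative to the start. Only 0.685% of grid positions were covered by a region. Its width was 546 bp, narrower than the lower quartile of the list (547 bp). Its score was 750, above 21.5% of the whole list and above 53.9% of the regions that did not reach the cap. The next region in the list was 70.2 kb away. Counting regions at the cap alone, 0 of the 6 starts had one within 1 kb. The share of grid positions that close to a region at the cap was not computed.

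CXCL10 (chr4:76942269-76944689, minus strand, band 4q21.1) had 4 regions within 50 kb, the most at this window but not at 25 or 100 kb, and none over the gene. The nearest to the start was chr4:76937477-76937992, which began 6.70 kb beyond it and was 516 bp wide with a score of 650. A further 3.72 kb away lay chr4:76933121-76933758, 638 bp wide with a score of 598, the lowest of the 13, and 6.74% of the list scored lower. These 2 low-scoring regions were the closest neighbours among the 13. The outer regions were both at the score cap, with chr4:76911852-76912335 (484 bp) lying 32.4 kb beyond the start and chr4:76976136-76976596 (461 bp) ending 31.4 kb before it. The RefSeq order sorts genes by their lowest coordinate alone, and how far each gene extends was not used. ART3, CXCL9 and SDAD1 have that coordinate on the side beyond CXCL10, and CXCL11 and NUP54 have it on the side before CXCL10. CXCL9 and CXCL11 encode the other CXCR3 ligands induced by interferon. The spans of these neighbours were not used, so no region was assigned to them. Whether any of the 4 regions lies inside one was not analysed.

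IL10 (chr1:206940948-206945839, minus strand, band 1q32.1) had 3 regions, all at the score cap of 1000. One lay within the gene, at chr1:206942611-206943376, with a width of 766 bp. It ran from 2463 to 3228 bases after the start, and whether it covers an exon or an intron was not analysed here. The others lay on either side of it, across gaps of 29.1 and 33.1 kb. The region chr1:206912581-206913514 (934 bp) began 32.3 kb beyond the start, on the side of MAPKAPK2, the gene of a kinase in stress signalling. The region chr1:206976483-206977097 (615 bp) ended 30.6 kb before the start, on the side of IL19, IL20 and IL24, which encode other members of the IL10 family. IL10 was the only gene of the 5 with regions whose regions were all at the cap, where 60.1% of the list lay. The closest region left out lay here too, with its midpoint 50.2 kb from the span (667 bp, score 816), while the outermost one taken in, near CCL17, lay 46.6 kb from its span.

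IL6 (chr7:22766766-22771621, plus strand, band 7p15.3) had no region in its window. The next regions were chr7:22679927-22680285, which ended 86.5 kb before the start and was 359 bp wide, and chr7:22862066-22862785, which began 95.3 kb beyond it and was 720 bp wide. Both had a score of 1000, the cap that 60.1% of the list reached, so the list did hold regions at the cap on either side. The interval between them was 181.8 kb. Of all intervals between neighbouring regions 17.2% were at least as long, and 66.3% of grid positions lay in such an interval. The depth is unknown, and the list may have been filtered for reproducibility and mappability. The absence of a region is therefore not read as closed chromatin.

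**Figure D2:**
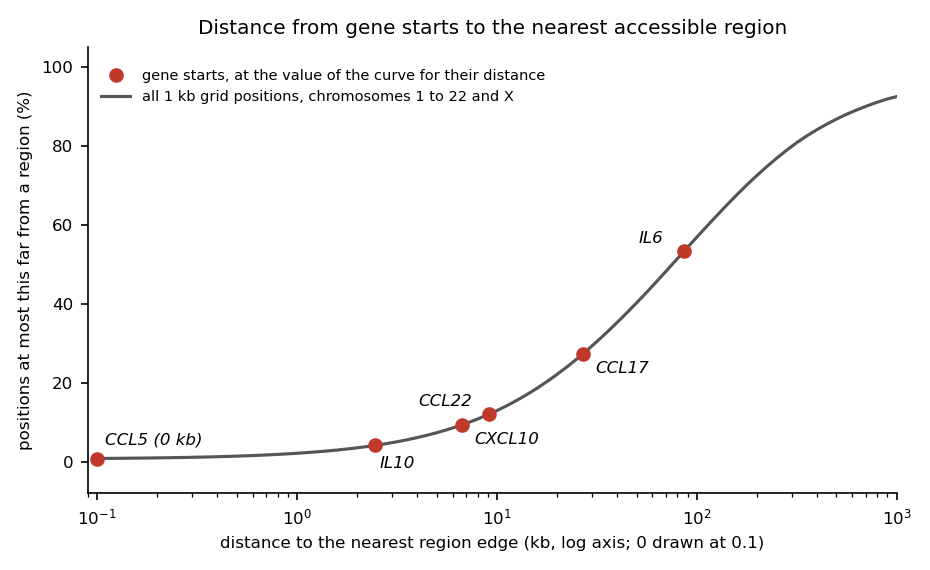
Distance from each gene start to the nearest region edge (red points, x axis in kb on a log scale, with 0 drawn at 0.1), placed on the curve of all 1 kb grid positions of chromosomes 1 to 22 and X, whose y axis is the percent of positions at most that far from a region. CCL5 sits at 0.685% and IL10 at 4.15%, whereas IL6 sits at 53.3%, near the middle of the curve.

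Read against the grid, the IL6 start lay about as far from a region as the median position, and the other 5 starts lay closer. As the curve gives it, 4.15% of positions were as close to a region as the IL10 start, 9.35% as close as CXCL10 and 12.1% as close as CCL22. For CCL17 the share was 27.3% and for IL6 53.3%. The grid was laid without regard to genes, so these shares describe distance along the whole genome and do not set the 6 genes against other genes. Centromeres and assembly gaps were not taken out of the grid, which may lower these shares.

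The windows as a whole held more regions than the chromosomes on average. Joined where they overlap, they covered 578.3 kb and held 22.5 regions per Mb, while the autosomes and X held 7.72 per Mb. For CXCL10, 4.49% of tiles as long as its window held at least 4 regions. For windows with 3 regions the share of tiles with at least as many was 10.3% (CCL22), 10.9% (CCL17) and 9.98% (IL10). Counting only regions at the score cap, in windows and tiles alike, the shares were 30.7% for CCL22 and 31.5% for CCL17. They were 11.03% for CXCL10 and 4.22% for IL10, so that IL10 and not CXCL10 had the rarest count in these 50 kb windows. At least 1 region, as near CCL5, was held by 42% of tiles. An empty window, as at IL6, was the commonest state, found in 59% of tiles. The counts at IL6 and CCL5 are thus common ones in the genome and say nothing particular of these genes. All but 1 of the 13 regions lay near the other 4 genes. Tiles were laid end to end without regard to genes, so no gene-matched background stands behind these shares. They covered full chromosome lengths, and centromeres and assembly gaps, where regions may not be listable, were not taken out. This may raise the share of empty tiles and lower the other shares and the average per Mb.

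**Figure D3:**
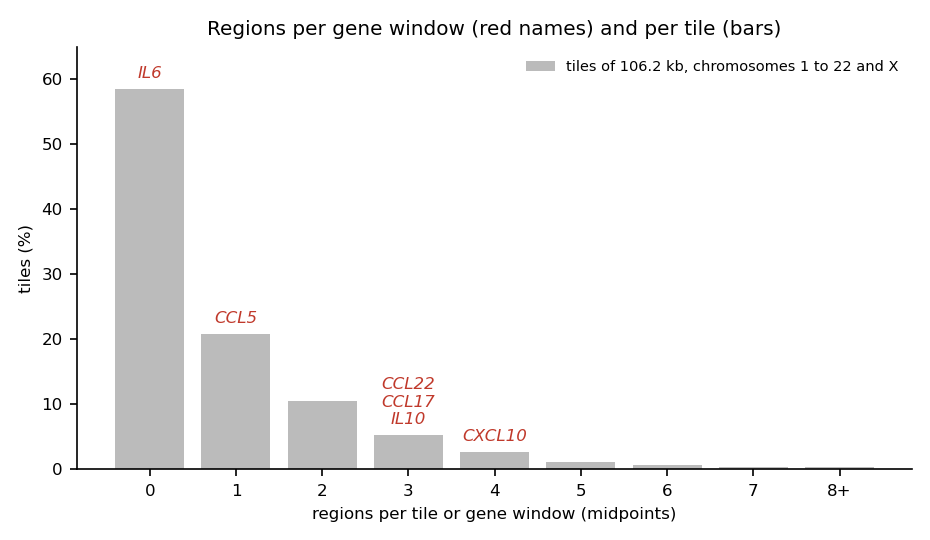
Number of regions in the window of each gene (red names) and in tiles of 106.2 kb laid end to end over chromosomes 1 to 22 and X (grey bars, y axis in percent of tiles). IL6 stands over the commonest class, tiles with 0 regions, and CXCL10, with 4, stands farthest to the right.

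The 13 regions were mostly narrower than the median of the list. Their median width was 615 bp against 756 bp in the whole list, and 9 of them were narrower than that median. At the score cap the median was 766 bp near the 6 genes and 953 bp in the list, and below the cap it was 531 bp near the 6 genes and 556 bp in the list. Only the 1425 bp region beyond CCL17 exceeded the upper quartile of the list (1082 bp), and 6 of the 13 lay under the lower quartile. The score was at its cap in 7 of 13 regions (53.8%), against 60.1% of the list. The exact 95% binomial interval was 25.1 to 80.8%. It covers counting error only and takes the regions as independent, although they lie in shared windows, so it is no test against the list. Among the 7 regions within 25 kb of a span, which are part of the 13, the share was 28.6%, inside the interval given above. With so few regions no trend with distance is read from it. A neighbour within 10 kb was present for 4 of 13 regions, the pairs near CCL22 and CXCL10, against 37.3% of the list on chromosomes 1 to 22 and X.

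**Figure D4:**
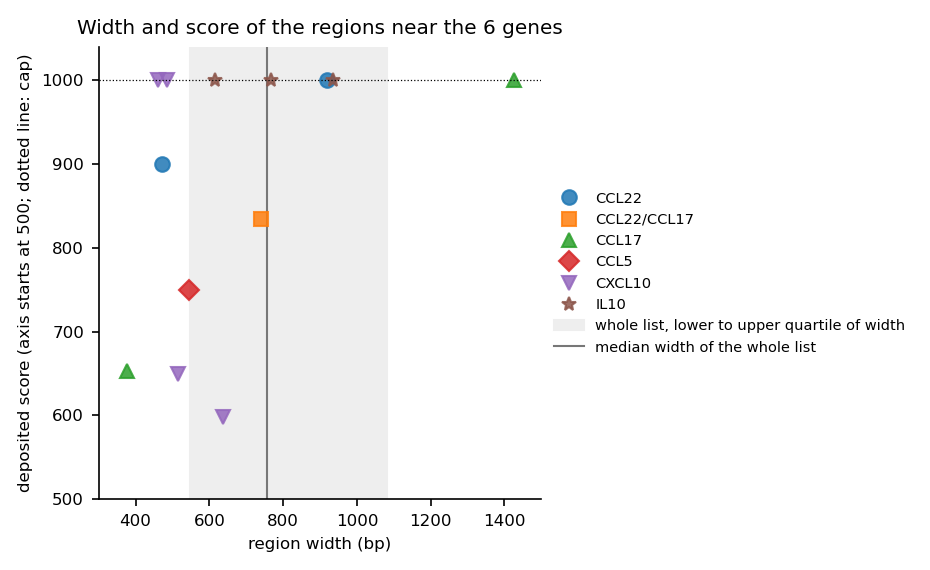
Width (x axis, bp) and deposited score (y axis, which does not begin at 0) of the 13 regions, with a symbol for each gene and an orange square for the region shared by CCL22 and CCL17. The grey band spans the quartiles of width in the whole list, 547 to 1082 bp, the grey line is its median and the dotted line is the score cap; 6 regions lie left of the band and only 1, beyond CCL17, lies right of it.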

How the data were processed

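Accessible regions were measured by ATAC-seq in 2 cultures of GM12878. What the authors deposited is a single list, in hg19 per the submitters' processing notes. Those notes also name MACS2 2.1.0, BWA 0.7.13 and Trim Galore 0.3.3, then Picard 1.92, bedtools 2.24.0, SAMtools 0.1.19 and CASAVA 1.8.4, with no roles. Any read shift for the transposase was not given in the sources used here. Each region has a deposited score, a whole number from 541 to a cap of 1000, on a scale that no header names, and was used only to describe regions within the list. The name of the list reads as if regions were kept by the irreproducible discovery rate (IDR) and filtered by mappability, mitochondrial DNA and a blacklist, although no label spells this out. Starts were converted to count from 1.

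The gene spans came with the rule that chose the members, and the members and lists were chosen with earlier results of these data known. All 6 genes and every region near them are named. Distances run from the gene start to the nearest region edge. Counts were set beside tiles as long as each window, and distances beside a grid of 1 kb, on chromosomes 1 to 22 and X, with bands and lengths from circlize 0.4.16. No test was run, since values per culture are lacking. Other window sizes, overlap in place of the midpoint, the score cap and tiles of 1 chromosome were tried as alternatives. Counting was tested on simulated regions. Only the promoter of a gene with a region at its start was to be printed, but the table gave none for that gene, so the 4 it holds were printed, a choice made after the values were seen. RefSeq tables (GRCh38.p14) gave promoters and gene order, and no coordinates. Python 3.11.15, numpy 2.4.6, pandas 2.3.3, scipy 1.17.1 and matplotlib 3.10.9 were used.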

Additional observations from a re-analysis of the deposited data

How the results depend on the processing

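A count was taken as unmoved within 1.5 times of its value, the share at the cap within its 95% binomial interval, the median width within the quartiles of the 13 widths, and a share of tiles within its own 95% binomial interval. The 13 regions became 7 within 25 kb of the spans and 7 at the score cap, and stayed within 1.5 times at 100 kb (19) and by any overlap (14). Giving each region to 1 gene returned 13 by construction, since the regions were already counted as distinct. The number of genes with a region at the start was 2 within 5 kb, where IL10 joins CCL5, and 0 at the score cap. Of all grid positions, 7.38% lay within 5.01 kb of a region. The share within 1 kb of a region at the cap was not computed, so that 0 has no background. With tiles of the gene's own chromosome the shares were 7.85% for CCL22, 7.52% for CCL17, 40% for CCL5, 4.88% for CXCL10, 9.01% for IL10 and 54.1% for IL6. At the score cap they were 30.7% for CCL22, 31.5% for CCL17, 11.03% for CXCL10, 4.22% for IL10 and 69.8% for IL6, and CCL5 has no region there to count. In the 50 kb windows IL10 was thus the gene with the rarest count at the cap, and CXCL10 that with the rarest count over all scores. Shares of tiles were not computed for windows of 25 or 100 kb, where the order of the counts differed. Within 25 kb 28.6% of regions were at the cap, and the median width ran from 615 to 766 bp over the alternatives. Of 54 alternatives in all, 27 moved the result, and each alternative for a share of tiles moved it. The interval for a share of tiles was narrow, since it rests on 27270 to 29635 tiles, and it leaves out the error of the alternative itself. That for the share at the cap was wide, 25.1 to 80.8%, so the step from 53.8% to 28.6% counted as unmoved. The tally thus depends on these rules and is no measure of stability. Of the 30 for single genes, 12 moved the count. Some of the unmoved ones could not have moved. The IL6 count within 25 kb or at the cap was fixed because its window was empty. That of IL10 at the cap was fixed because all its regions were there. No paired analysis was possible because both cultures share a single list, and for the same reason neither culture could be left out.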

Other observations

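Widening the windows to 100 kb took in 6 further regions, 4 of them at the score cap. Their midpoints all lay more than 50 kb from the spans, so the widening could not add a region at a start. The nearest to CCL5 among them, chr17:34135823-34136905, was 1083 bp wide with a score of 1000 and began 70.5 kb beyond the start, on the side of HEATR9 and TAF15. Region numbers in the list run in order of position, and 0 numbers were skipped between the regions within 100 kb of any of the 6 genes, the stretch across IL6 included. Whether the numbers were given before or after any filtering is not known here. The count therefore does not show whether a region was removed.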
